A study of Mus musculus with 12 samples.

Results

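The comparison described here is all-trans retinoic acid (ATRA) against vehicle in mouse embryonic stem cells that lack the retinoic acid receptors (TKO), read in 3 library pairs that carry the letters D, F and G. Its members are the 6 TKO libraries of 12 in the series, chosen by genotype and treatment in the table's column names, and every gene was examined. TKO stands for loss of Rara, Rarb and Rarg, and the cells, of strain SV129, grew on gelatin with leukemia inhibitory factor (LIF), which holds stem cells undifferentiated. TKO_vehicle cells received ethanol and TKO_ATRA cells received 1 uM ATRA, each for 24 h, with 3 libraries per group. The 6 wild type (WT) libraries, 3 with ethanol and 3 with ATRA under the same dose, time and culture, serve only as a scale. Whether TKO is 1 clone, and whether the libraries of a group are separate cultures, is not stated in the labels, so a p-value here speaks only of the variation among these particular libraries, which may be technical.

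ATRA is the active acid derived from vitamin A. It binds the receptors RARα, RARβ and RARγ, which sit on DNA as partners of retinoid X receptors (RXR) and switch on nearby genes when ATRA is bound. ATRA is also reported to reach cells through other routes, among them lipid-binding proteins that carry it to PPARδ, kinase signalling and oxidation products, and RXR pairs with further receptors such as the liver X receptors (LXR), which sense sterols. The question the comparison answers is how large any change with ATRA can be when the receptors are absent.

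The receptor response element most often described is a direct repeat of a hexamer with 5 bases between the copies (DR5). It is shown here in the promoters of Cyp26a1 and Rarb because these were the 2 genes among the largest WT rises and the direct target list whose promoter window held one, and their loss of response is followed below. The search took AGGTCA as the hexamer, allowed AGTTCA as a variant of it, and further accepted GGGTCA in its place or else GGTTCA, on both strands, in windows from 250 bases before to 50 after each RefSeq gene start (GRCm38.p6). The capitals mark the repeat in the 250 bases before each start, written 5′ to 3′ on the gene's strand.
Cyp26a1, chr19:37697558-37697807, plus strand: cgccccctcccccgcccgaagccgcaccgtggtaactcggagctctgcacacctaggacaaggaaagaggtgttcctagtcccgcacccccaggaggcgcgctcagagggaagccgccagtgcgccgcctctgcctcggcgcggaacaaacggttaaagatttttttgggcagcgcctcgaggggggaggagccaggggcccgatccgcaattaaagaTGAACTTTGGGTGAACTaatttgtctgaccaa
Rarb, chr14:16575477-16575726, minus strand: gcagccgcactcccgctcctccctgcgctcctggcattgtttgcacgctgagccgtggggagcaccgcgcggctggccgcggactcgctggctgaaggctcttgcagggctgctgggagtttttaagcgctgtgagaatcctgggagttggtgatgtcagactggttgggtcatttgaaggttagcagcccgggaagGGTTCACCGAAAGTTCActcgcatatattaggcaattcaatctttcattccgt
In Cyp26a1 the repeat reads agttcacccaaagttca on the opposite strand and lies 16 to 32 bases before the start. In Rarb it reads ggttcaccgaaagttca and lies 37 to 53 bases before the start. Such a repeat stood in 32 of 32851 promoter windows (0.0974%), in 4 of 11730 windows of tested genes (0.0341%) and in 2 of 228 windows of genes raised at least 2-fold in WT (0.877%). The last 2 are the windows of Cyp26a1 and Rarb, which are shown because they hold a repeat, so that share is no separate result. A match is a description of letters and not a measured binding site.

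Values are FPKM, which are reads scaled to transcript length and library size. Changes are differences of log2(FPKM + 1), so the change of a weakly expressed gene is understated. Estimated depth was 21500000 to 30100000 reads for the 6 TKO libraries, an approximate figure read from the steps between the lowest FPKM values. The 8 stem cell marker genes, among them Pou5f1, Nanog and Sox2, were each at least at 54.7 FPKM in every TKO library and summed to 6196 to 6584 in vehicle and 6029 to 6327 with ATRA. The 6 fibroblast feeder markers summed to 0.369 to 0.592 and 0.407 to 0.838 FPKM, and 1 of them was at 0 in each group. Other genes of the wider feeder list were read at higher levels, such as Thy1 at 10.2 to 13.3 FPKM and Col5a1 at 2.08 to 2.96. The 5 extraembryonic endoderm markers summed to 16.5 to 22.5 FPKM in vehicle and 14.7 to 24.7 with ATRA, and the 5 trophoblast markers to 5.92 to 24.8 and 5.79 to 25.5. Just 1 of the 5 trophoblast markers reached 1 FPKM in all 3 libraries of each group. Most of that sum was Hand1, also listed as a mesoderm gene, at 14.15, 19.59 and 4.26 FPKM in D, F and G of vehicle. Cdx2 was at 0.233, 0.245 and 0.0569 FPKM there and Elf5 at 0.0658, 0.0996 and 0.0504, so the sum does not describe the set. The 4 neural markers summed to 1.28 to 1.43 FPKM in vehicle and 1.09 to 1.59 with ATRA, while the tubulin gene Tubb3, outside that sum, was at 42.3 to 53.9. The range of each marker sum overlapped between ATRA and vehicle. Within letters, the stem cell sum was lower and the feeder sum higher with ATRA in each pair. The endoderm, trophoblast and neural sums went both ways. In bulk RNA, fewer cells of a type and less RNA per cell cannot be told apart.

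The genes targeted in the TKO cells were read first. Rarg, the most abundant receptor gene, was at 15.4, 17.5 and 11.9 FPKM in the D, F and G libraries of vehicle and at 14.5, 17.4 and 13.1 with ATRA. Rara was at 7.55, 9.03 and 9.03 FPKM in vehicle and at 8.38, 9.82 and 9.70 with ATRA. Rarb was at 0.122, 0.139 and 0.134 FPKM in vehicle and at 0.0674, 0.0150 and 0.0725 with ATRA. The Rara and Rarg groups overlapped, whereas every Rarb value with ATRA was below every vehicle value, at an estimated 9 to 13 reads per vehicle library and 1 to 6 per ATRA library. Within the letters the log2 changes were 0.01 for Rarg (95% interval −0.10 to 0.13), 0.11 for Rara (0.01 to 0.21, unadjusted p = 0.0353 and adjusted p = 0.734 in limma) and −0.11 for Rarb (−0.26 to 0.05). In WT the 3 genes rose by 0.85, 0.73 and 2.47 in the same order. WT vehicle held 47.99 ± 10.7 FPKM of Rarg, 11.1 ± 2.64 of Rara and 0.361 ± 0.137 of Rarb, against 14.9 ± 2.87, 8.54 ± 0.852 and 0.132 ± 0.00861 in TKO vehicle (SD, n = 3). Reads over a gene do not show whether its transcript is intact.

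Within a letter, the vehicle and ATRA libraries were nearly the same. The spread of the log2 ratio over 12362 tested genes (median absolute deviation scaled to an SD) was 0.0824 in pair D, 0.0745 in F and 0.110 in G. In these pairs 85.1%, 86.4% and 76.0% of genes lay within 1.1-fold, and 99.85%, 99.88% and 99.86% within 2-fold. TKO libraries of the same treatment but different letters had spreads of 0.152 to 0.359, so a library was closer to the other treatment of its own letter than to any other library of its own treatment. WT pairs, which hold the receptor response, had spreads of 0.270 to 0.306.

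The genes that did differ more than 2-fold within a TKO pair were mostly small RNA genes. There were 19 in pair D, 15 in F and 17 in G, of which 17, 11 and 14 were small RNA genes such as small nucleolar RNAs (snoRNA), which guide chemical modification of ribosomal RNA and mostly lie inside introns of other genes. Snora70 was past 2-fold in each of the 3 pairs, with log2 changes of 1.99, 2.28 and 2.63 in D, F and G. Over all genes the changes of different pairs were close to unrelated: over the 12362 genes, Pearson's r between the changes of D and F was −0.00476, of D and G 0.0474 and of F and G −0.101. These correlations are across genes, which are not independent replicates, and each change comes from its own 2 libraries.

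Set against counting noise from the estimated reads, the TKO pairs came close to the limit for weakly expressed genes and exceeded it for strong ones. For genes with 20 to 50 reads the spread was 0.996 to 1.12 times the counting noise, with 50 to 200 reads 1.095 to 1.29 times, and with 200 to 1000 reads 1.17 to 1.61 times. With 1000 to 5000 reads it was 1.44 times in pair D, 1.34 in F and 2.17 in G. The same ratios ran from 1.27 to 7.91 between letters and from 2.50 to 6.45 in WT pairs. Each pair thus differed by more than counting noise among strongly expressed genes, and pair G was the loosest.

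**Figure D1:**
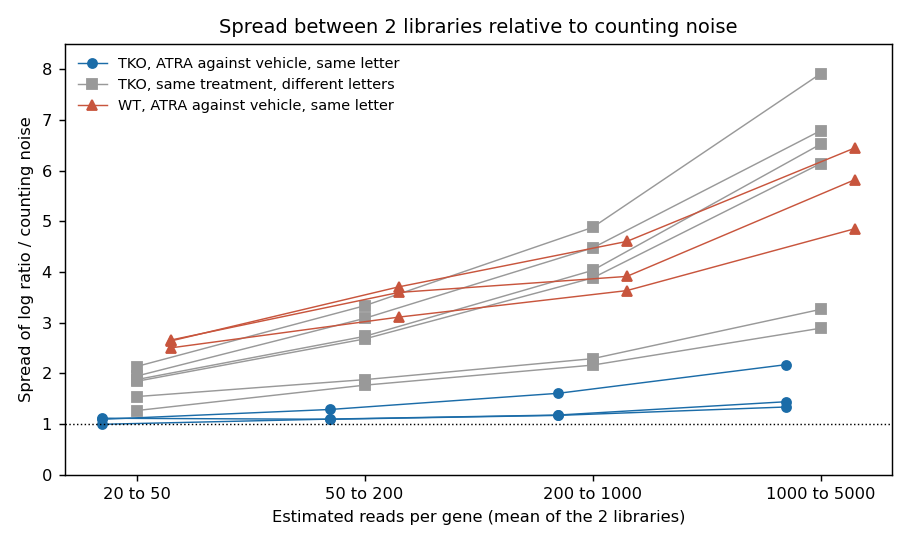
Spread of the log ratio between 2 libraries divided by counting noise (y axis) by estimated reads per gene (x axis, 4 classes); 1 line is 1 pair of libraries and the dotted line marks counting noise alone. TKO pairs of the same letter stay between 0.996 and 2.17, below every line that joins different letters of the same treatment and below the WT pairs.

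Across all genes, ATRA in TKO cells moved almost nothing past the threshold. With letter as a block in limma, 3 of 12362 genes passed an adjusted p of 0.05 (0.0243%), 2 higher (0.0162%) and 1 lower (0.00809%). In the WT libraries the same fit called 5695 genes (46.1%), 3520 higher and 2175 lower. At an unadjusted p under 0.05 there were 829 TKO genes (6.71%), 331 higher (2.68%) and 498 lower (4.03%), where 5% of the genes, 618.1, would fall by the definition of p. Vehicle and ATRA groups did not overlap for 164 genes in TKO (1.33%), 91 higher with ATRA (0.736%) and 73 lower (0.591%), and for 4248 in WT (34.4%). The median log2 change over all tested genes was −0.0029.

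The 3 genes that passed were Akr1b3, Snora70 and Snora64. Akr1b3 encodes aldose reductase, which turns glucose into sorbitol and also reduces retinaldehyde. It was at 12.5, 14.6 and 12.7 FPKM in vehicle (D, F, G) and at 24.5, 24.8 and 22.1 with ATRA. Every ATRA library was above every vehicle library, and the log2 change was 0.80 ± 0.05 (SE; interval 0.69 to 0.91, adjusted p = 0.00131). In WT cells it was at 33.3, 23.6 and 19.2 FPKM in vehicle and 14.1, 19.5 and 19.4 with ATRA, a change of −0.48 that did not pass (adjusted p = 0.305). The effects differed between genotypes by 1.28 (adjusted p = 0.0311 in limma). That difference reuses the TKO values by which the gene was found.

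In the table's own positions, which are not GRCm38, each of the 3 genes lies on a listed gene with many times more signal. For Akr1b3 that gene is Gm6644, listed on nearly the same span, for which RefSeq gives the synonym Akr1b3p, a transcribed pseudogene. The GENCODE vM21 annotation of GRCm38 does not give this overlap: it puts Akr1b3 on chromosome 6 (34302434 to 34317478, minus strand) and Gm6644, a processed pseudogene, on chromosome 1 (55444074 to 55445024). Gm6644 was at 465.9, 566.8 and 375.1 FPKM in vehicle and at 451.9, 552.8 and 390.5 with ATRA, so its groups overlapped. Akr1b3 made up 2.51% to 3.27% of the sum of the 2 genes in vehicle and 4.29% to 5.35% with ATRA. The sum itself changed by −0.01, −0.01 and 0.09 on the log2 scale (mean 0.02 ± 0.06 SD, 3 pairs), and Akr1b3 alone by 0.80 ± 0.10. With Akr1b3 so small a share, the sum would stay nearly level whether or not reads moved between the copies. A level sum therefore cannot decide this. Reads of near-identical sequences can be split between copies in more than 1 way, and GENCODE places an antisense gene, Gm14546, across Akr1b3 (chromosome 6, 34290265 to 34324249). The part of either in the Akr1b3 change was not tested, and its value is uncertain for that reason.

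The 2 snoRNA genes sit inside ribosomal protein genes. Snora70 (chromosome X, 74272484 to 74272620), within Rpl10, was at 7.58, 6.77 and 6.09 FPKM in vehicle and at 33.0, 36.8 and 42.8 with ATRA. Its groups did not overlap, and the log2 change was 2.30 ± 0.12 (SE; adjusted p = 0.0213). In WT vehicle, without ATRA, Snora70 ranged from 7.62 to 51.9 FPKM, wider than the gap between the TKO groups. Snora64 (chromosome 17, 24720772 to 24720905), within Rps2, was at 105.6, 158.8 and 93.7 FPKM in vehicle and at 63.8, 101.8 and 54.0 with ATRA, lower in each pair by −0.71 ± 0.03 (SE; adjusted p = 6.6e-04) although the groups overlapped. The hosts were far higher, Rpl10 at 1416 to 1614 FPKM and Rps2 at 3865 to 4109 over the TKO libraries, and reads from a host intron or exon cannot be told apart from the snoRNA here.

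**Figure D2:**
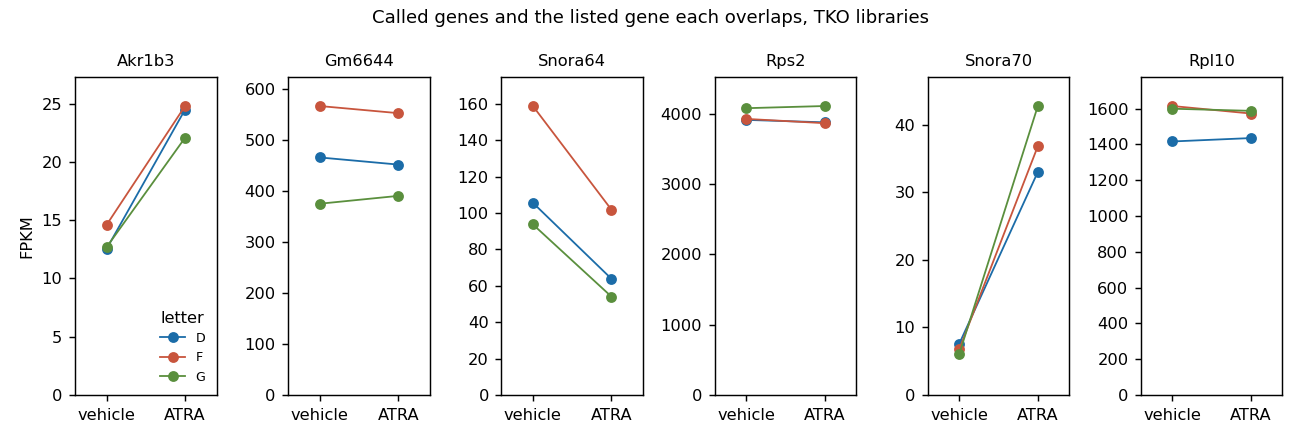
FPKM (y axes from 0) in vehicle and ATRA for the 3 genes that passed the threshold and, to the right of each, the gene it overlaps by the table's positions; lines join the TKO libraries of 1 letter. Akr1b3 and Snora70 are higher and Snora64 lower with ATRA in each pair, while Gm6644, Rps2 and Rpl10 stay nearly level.

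The calls depended on the fit. They numbered 0 with no filter on low values, 0 without trend or robust moderation and 0 over all 12 libraries with or without the block within genotype. By the table's positions 2147 tested genes (17.4%) overlap another listed gene, Akr1b3 among them through Gm6644. With these left out, 0 of the other 10215 genes passed the limma threshold, and 715 reached an unadjusted p under 0.05. Each called gene was among those left out, and this setting was chosen after seeing the data. That count of 0 was therefore nearly fixed in advance. The gene next past the threshold was 2410006H16Rik, at a log2 change of −0.20 with an adjusted p of 0.181. Leaving out a pair changed the count to 4 without D, 8 without F and 6 without G. Akr1b3 and Snora64 passed in each of these fits and Snora70 did not without F, where its adjusted p was 0.306. The added genes were 8 small RNA genes (Snora52 without D, Rmrp, Scarna8, Snora16a and Snora65 without F, and, without G, Snora41, Snora43 and Snora7a) and, without F, Cox7a1 and 1190002F15Rik. These genes were named after their values were seen. Without the letter block 1 gene passed, Snora70.

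The direct targets of the receptors were read gene by gene. Cyp26a1, whose enzyme degrades ATRA, was at 1.04, 1.69 and 1.36 FPKM in TKO vehicle and at 1.06, 1.89 and 1.51 with ATRA, an estimated 41 to 81 reads per library. The pairs were each slightly higher with ATRA, by less than the libraries of a group differed, and the log2 change was 0.07 (−0.07 to 0.21, adjusted p = 0.827). The upper end of that interval is 3.05% of the change in WT, where Cyp26a1 went from 0.493 ± 0.191 to 194 ± 64.0 FPKM (SD, n = 3). Stra6, the retinol transporter gene, was at 0.361, 0.968 and 0.609 FPKM in TKO vehicle and 0.467, 0.929 and 0.542 with ATRA. Dhrs3, which encodes a retinaldehyde reductase, was at 0.202, 0.550 and 0.248 FPKM in vehicle and 0.242, 0.334 and 0.391 with ATRA. Both sets of groups overlapped, and the upper interval ends were 4.09% and 5.45% of the WT changes on log2(FPKM + 1). Since both genes were under 1 FPKM in TKO, these shares bound a level and not a fold.

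Of 24 listed direct targets 21 could be tested, but 12 of these had a mean under 1 FPKM in TKO and could pass the filter through their WT values, so no count over the 21 is read as support. The other 9 had changes from −0.10 to 0.15, and their intervals ran from −0.27 to 0.35. Stra8, a gene of meiotic entry with more signal in these cells, was at 16.3, 10.1 and 14.2 FPKM in vehicle and at 15.3, 10.6 and 13.7 with ATRA. Its interval, −0.13 to 0.09, is set on 10 FPKM or more and so bounds a fold change and not just a level. Hox cluster genes, regulators of regional identity in the embryo, were mostly at low levels: of 20 tested, 18 had a mean under 1 FPKM in TKO and 10 a mean under 0.1. Hoxb2 was at 0, 0.0475 and 0.0208 FPKM in vehicle and at 0 in the 3 ATRA libraries, at an estimated 0 to 2 reads per library. Genes this low give a bound on the level reached with ATRA and none on a fold.

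Genes that ATRA changes in WT cells were then read as a class. Of the 268 genes that rose at least 2-fold in WT, 147 had a mean of at least 1 FPKM in TKO; the others could pass the filter through WT with ATRA alone and are not used here. For the 147 the median change was 1.30 in WT and 0.02 in TKO. The end of the TKO interval on the side of the WT change reached at most 10% of that change for 59, 25% for 134 and 50% for all 147. The opposite end of the interval is not bounded by these shares. For the 141 genes that fell at least 2-fold, the medians were −1.31 and −0.03, and the same limits held for 66, 129 and 141. The TKO change had an unadjusted p under 0.05 in the WT direction for 13 of the 147 (8.84%, beside 2.68% of all genes higher) and 14 of the 141 (9.93%, beside 4.03% lower), and in the opposite direction for 2 and 3. 0 of these genes passed the adjusted threshold in TKO. Tdh, a threonine dehydrogenase gene of mouse stem cells, fell by 3.93 on the log2 scale in WT and was at 320.3, 246.7 and 267.8 FPKM in TKO vehicle and 316.3, 234.6 and 273.7 with ATRA. The vehicle and ATRA values of each letter nearly coincided, with an interval of −0.09 to 0.05. Among the 8 largest WT falls, Ly6g6e had the largest TKO change, at 38.6, 26.4 and 40.7 FPKM in vehicle and 35.4, 25.01 and 31.7 with ATRA, −0.18 (−0.31 to −0.06, unadjusted p = 0.00934, adjusted p = 0.734).

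**Figure D3:**
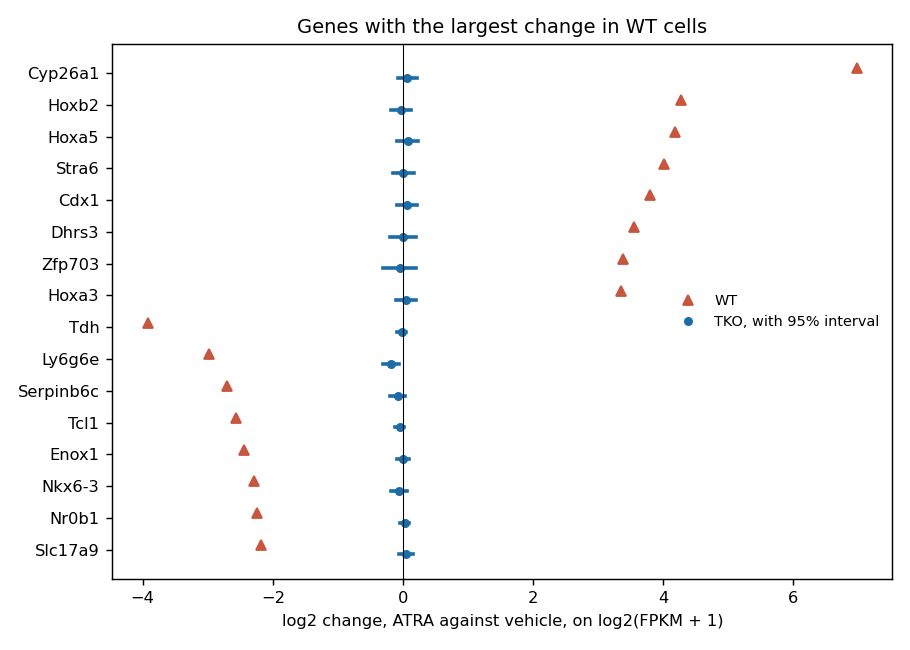
Log2 change with ATRA on log2(FPKM + 1) (x axis) for the 8 largest rises and the 8 largest falls in WT; triangles are WT and circles with bars are TKO with the 95% interval. TKO intervals stay close to 0 for genes whose WT change runs from −3.93 to 6.98. Hoxb2, Hoxa5, Stra6, Dhrs3, Zfp703 and Hoxa3 have TKO means under 1 FPKM, where a change on this scale is understated.

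On log2(FPKM + 1), the bounds on most single genes were narrow. The median distance from the estimated change to its interval end was 0.113 on the log2 scale, or 1.08-fold. The 95% interval lay within 1.5-fold of no change for 12278 genes (99.3%) and within 2-fold for 12323 (99.7%). The median distance was 0.164 for genes under 1 FPKM, 0.113 at 5 to 20 FPKM and 0.0663 at 100 FPKM or more. These folds are of FPKM + 1. For the 706 genes under 1 FPKM they bound a level and not a fold, and for the 2985 at 1 to 5 FPKM they understate the fold. Of the 39 genes whose interval reached past 2-fold, 27 were small RNA genes. These bounds rest on the letter block: without it the distance was 0.307 and 83.9% of genes lay within 1.5-fold. They concern the RNA level at 24 h and 1 uM in these libraries.

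The largest rises and falls that were the same way in all 3 pairs were small, and 0 of these 16 genes other than Akr1b3 passed the threshold. By comparison, 1726 tested genes were higher in all 3 pairs (14%) and 1882 lower (15.2%). Zfp672, a zinc finger gene, was at 3.25, 2.62 and 2.52 FPKM in vehicle and 4.56, 3.34 and 4.61 with ATRA, a change of 0.44 (0.25 to 0.63, unadjusted p = 8.1e-04, adjusted p = 0.560). Phf11a was at 1.247, 0.799 and 0.945 FPKM in vehicle and 1.96, 1.16 and 1.54 with ATRA, 0.35 (0.20 to 0.50). Zfp672 groups did not overlap, while the Phf11a groups did, since its F library was the lowest in both treatments. Further genes in this group were Sstr2 (0.35), a somatostatin receptor gene, and Steap3 (0.31), which encodes an iron reductase. On the falling side, Tmsb15l was at 5.80, 4.24 and 5.23 FPKM in vehicle and 4.73, 2.27 and 4.15 with ATRA (−0.40, −0.61 to −0.20), and Rab20, a small GTPase gene, changed by −0.35, with Nupr1 (−0.33), Cxx1b (−0.32), Cntd1 (−0.31), Atp12a (−0.31), Vpreb1 (−0.30) and Pomc (−0.30) below it. The adjusted p of each of these 8 falls was 0.734 in limma.

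Abca1, Abcg1 and Scd2, which act in lipid handling, completed the 8 largest rises. Abca1 and Abcg1 encode the pumps that export cholesterol, and are textbook targets of LXR with RXR. Abca1 was at 6.06, 3.71 and 4.58 FPKM in vehicle and at 7.66, 4.19 and 6.604 with ATRA. Abcg1 was at 4.01, 4.03 and 5.99 FPKM in vehicle and at 5.04, 4.23 and 9.47 with ATRA. Both were higher with ATRA in 3 of 3 pairs although their groups overlapped, by 0.29 (0.14 to 0.45, unadjusted p = 0.00260) and 0.30 (0.09 to 0.52, unadjusted p = 0.0124), each with an adjusted p of 0.734. In WT the changes of Abca1 and Abcg1 were −0.20 and −0.13 and did not pass (adjusted p = 0.104 and 0.248). Set against WT directly, the TKO effect was higher by 0.49 for Abca1 and by 0.43 for Abcg1 (adjusted p = 0.0105 and 0.0299 in limma over 12 libraries with letter within genotype as a block). That test called 14.2% of all genes with a higher effect in TKO. It also reuses the TKO values by which both genes were picked, so it is no separate support.

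Of 15 tested genes on the LXR and RXR lipid list, 8 were higher (53.3%) and 1 lower (6.67%) at an unadjusted p under 0.05, beside 2.68% and 4.03% of all genes, and 0 passed the adjusted threshold. The 8 were Abca1, Abcg1 and 6 genes of fatty acid synthesis, namely Srebf1, which encodes the regulator SREBP1, its targets Scd1, Scd2, Fasn and Acaca, and Elovl6. Scd2, a fatty acid desaturase gene, was at 87.7, 134.8 and 68.5 FPKM in vehicle and at 107.2, 145.4 and 98.8 with ATRA, 0.31 (0.12 to 0.49). Srebf1 was at 25.3, 37.9 and 24.7 FPKM in vehicle and at 29.4, 39.9 and 32.2 with ATRA, 0.22 (0.09 to 0.34). The F library of each was the highest in its treatment, and the F pair changed least. Fasn, the fatty acid synthase gene, changed by 0.17, Scd1 by 0.21, Acaca by 0.13 and Elovl6 by 0.09. Apoe, which encodes a lipid carrier and is an LXR target, went the other way at 481.2, 238.2 and 564.5 FPKM in vehicle and 475.3, 202.2 and 538.2 with ATRA, −0.11 (−0.20 to −0.01). The receptor gene Nr1h2 (LXRβ) was at 0.05 (−0.05 to 0.15) and Nr1h3 (LXRα) at −0.02 (−0.17 to 0.13).

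The lipid values were uneven between pairs. The list's median change was 0.09 in pair D, 0.04 in F and 0.17 in G (0.09 in the fit, against −0.0029 over all genes). The count of 8 was 5 without D, 8 without F and 3 without G, was 8 under median-of-ratios scaling and under quantile normalization, and was 0 without the letter block. Unlike the ATP-binding cassette genes, Srebf1, Scd1, Scd2, Fasn, Acaca and Elovl6 rose in WT, by 0.65 to 1.315, and their TKO values were 0.09 to 0.31.

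Sterol synthesis genes had a like pattern with a larger pull from 1 pair. All 20 tested members had an estimate above 0, beside 48.0% of all tested genes. Of them 5 had an unadjusted p under 0.05 (25%, beside 2.68%; among them Idi1, Fdps and Mvd) and 0 past the adjusted threshold. Fdps, which encodes farnesyl diphosphate synthase, was at 53.98, 103.7 and 59.4 FPKM in vehicle and at 59.4, 106.6 and 79.3 with ATRA, 0.20 (0.04 to 0.35). Idi1, an enzyme gene of isoprenoid synthesis, was at 25.3, 61.0 and 22.1 FPKM in vehicle and at 27.5, 64.7 and 28.4 with ATRA, 0.18 (0.06 to 0.31). In both the F libraries stood far above D and G and the F pair moved least. The list's median change was 0.08 in D, −0.0029 in F and 0.26 in G. The count of 5 was 1 without D, 12 without F and 1 without G, 5 under median-of-ratios scaling and 4 under quantile normalization, and 0 without the letter block.

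**Figure D4:**
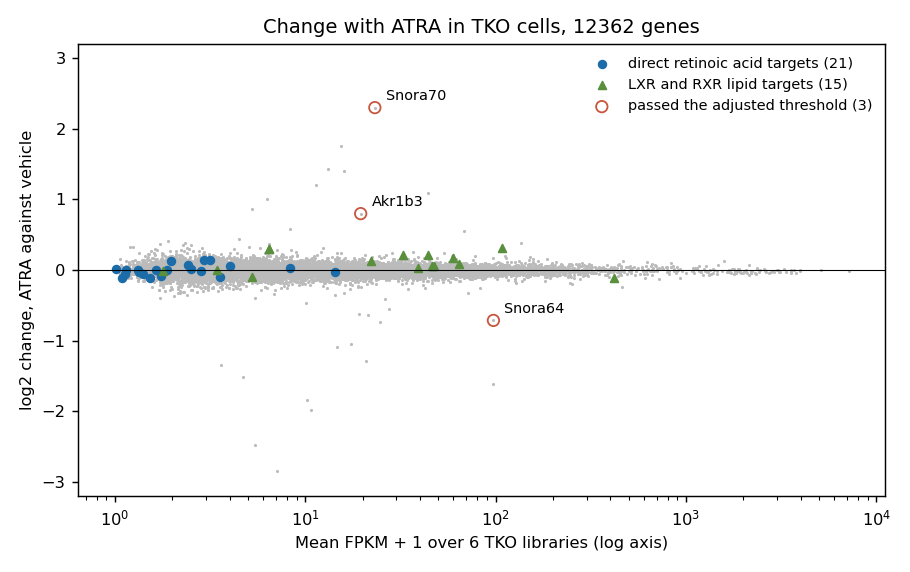
Log2 change with ATRA in TKO (y axis) against mean FPKM + 1 over the 6 TKO libraries (x axis, log scale) for 12362 genes in grey; blue circles are direct retinoic acid targets, green triangles LXR and RXR lipid targets, and red rings the 3 genes past the threshold. Direct targets lie between −0.12 and 0.15, but 12 of the 21 have a TKO mean under 1 FPKM, where a change on this scale is understated. Lipid targets lie between −0.11 and 0.31.

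Other routes named for ATRA and stress responses were read from further lists, beside 2.68% of all genes higher and 4.03% lower at an unadjusted p under 0.05. Of 23 tested FABP5 and PPAR targets, genes of fatty acid transport and oxidation, 1 was higher (4.35%) and 2 lower (8.70%), with a median of 0.02 and a range of −0.10 to 0.17. Of 25 immediate early and ERK feedback genes, which answer kinase signalling, 1 was higher (4%) and 3 lower (12%; median 9.2e-04). Of 27 oxidative stress genes under NRF2, 1 was higher (3.70%) and 0 lower (median 0.0028). The ROR and circadian list of 13 genes had 1 higher (7.69%; median 0.08, with 0.10, −0.06 and 0.13 in D, F and G). Of 24 endoplasmic reticulum and amino acid stress genes 1 was higher (4.17%) and 5 lower (20.8%), the latter Ddit3, Mthfd2, Trib3, Phgdh and Asns. Ddit3, which encodes the stress factor CHOP, was at 19.9, 8.27 and 28.9 FPKM in vehicle and 18.2, 7.26 and 24.9 with ATRA, lower in each pair with a change of −0.17 (−0.26 to −0.07, unadjusted p = 0.00328, adjusted p = 0.734).

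Genes of glucose use and of the stem cell state held further small values, again beside 2.68% higher and 4.03% lower over all genes, with 0 past the adjusted threshold except Akr1b3. Of 22 tested glucose use and hypoxia genes 4 were higher at an unadjusted p under 0.05 (18.2%; Slc2a1, Pfkl, Ldha and Bnip3) and 2 lower (9.09%; Txnip and Arrdc4). Slc2a1, the main glucose transporter gene, was at 134.8, 274 and 119.5 FPKM in vehicle and at 148.9, 280.3 and 147.7 with ATRA, 0.16 (0.05 to 0.27). Txnip, which encodes an inhibitor of glucose uptake, was at 329.8, 129.1 and 315.8 FPKM in vehicle and at 314.8, 112.5 and 259.8 with ATRA, −0.18 (−0.28 to −0.09). Each pair went in the direction given, and the groups overlapped because F differed from D and G. Of 29 naive and core pluripotency genes 0 were higher and 4 lower (13.8%; Nanog, Zfp42, Klf4 and Dppa3), with a list median of −0.03 against −0.71 in WT. Klf4, a factor downstream of LIF, was at 165.2, 135.1 and 137.4 FPKM in vehicle and at 158.4, 124.5 and 117.7 with ATRA, −0.13 (−0.22 to −0.05). Of 16 retinoid metabolism genes 2 were higher (12.5%), Akr1b3, past the threshold as above, and Por, the latter at 0.11 with an unadjusted p of 0.0483, and the list median was −2.4e-04. Of 76 cytosolic ribosomal protein genes 0 were higher and 6 lower (7.90%), with a median of −0.02.

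The size of these changes can be read against the differences between letters. Between letters, limma called 8862 of 12362 genes (71.7%), with a median range of 0.288 on the log2 scale, while the median size of the ATRA change was 0.0393. The range between letters passed 2-fold for 334 genes, and the ATRA estimate for 17. The measures are unlike: the first is a range over 3 letter means, the other a difference of treatment means with the letters blocked. By noise alone such a range would tend to be larger. Letter F stood furthest out: without it the count of letter differences was 2741. Chac1, a stress gene that breaks down glutathione, was at 56.4 and 66.7 FPKM in D and G vehicle and 7.17 in F, and at 55.1, 59.8 and 4.41 with ATRA in the same order. Nupr1, another stress gene, was at 97.0, 128.7 and 14.2 FPKM in D, G and F of vehicle and 84.2, 84.7 and 12.4 with ATRA. For both genes the gap between F and the other letters exceeds any gap between treatments.

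The lists that varied between letters were in part those with small values for ATRA. Sterol synthesis genes in F stood 0.35 above the mean of the 3 letters (median over members, log2), with −0.15 in D and −0.20 in G. Between letters 18 of these 20 were called, beside 71.7% of all tested genes. Endoplasmic reticulum and amino acid stress genes stood at −0.21 in F, 0.12 in D and 0.12 in G, with 23 of 24 called. Glucose use and hypoxia genes stood at 0.33 in F, trophoblast genes at 0.45 and extraembryonic endoderm genes at 0.29. Of the direct retinoic acid targets, 9 of 21 were called between letters, a lower share than the 71.7% of all tested genes. That count includes the 12 with a TKO mean under 1 FPKM. Their median range was 0.309, beside 0.288 over all genes, and the list's letter medians lay between −0.0056 and 0.03. The part of the letter differences in the lipid and stress values with ATRA was not tested.

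**Figure D5:**
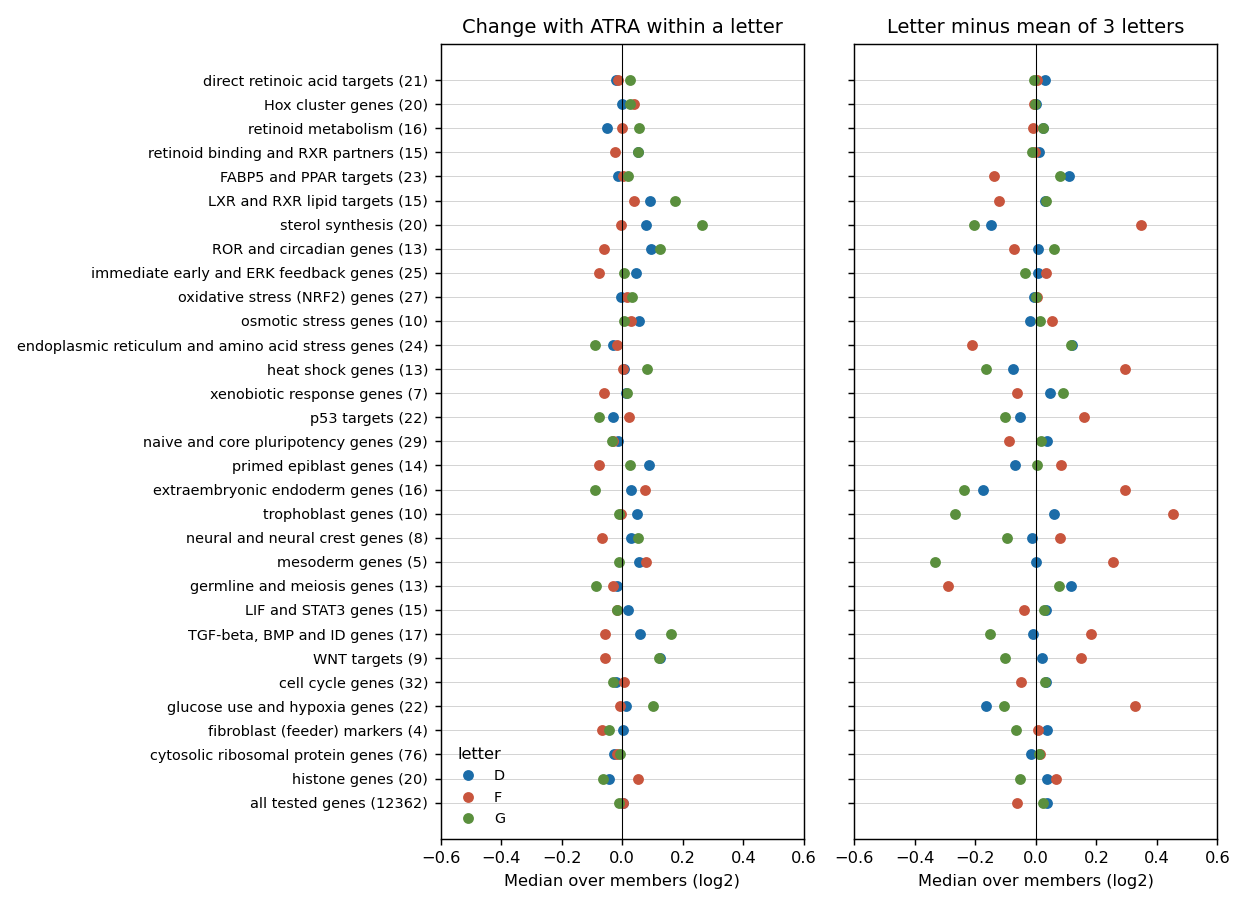
Median over list members (x axes, log2) of the change with ATRA within a letter (left) and of each letter's level minus the mean of the 3 letters (right), with the number of tested genes in brackets; colours are letters D, F and G. Medians on the left run up to 0.26 (sterol synthesis in G), and on the right up to 0.45 (trophoblast genes in F). The list of small nucleolar RNA genes, whose letter median in F was 0.485, is not drawn.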

How the data were processed

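RNA was measured in 12 mouse embryonic stem cell libraries, single-end 51 bp reads from TruSeq libraries on a HiSeq4000, per the labels' protocols. The deposited table gives FPKM per gene; no header names the unit, which was inferred from the values and the tools (STAR, Cufflinks) and build (GRCm38) listed in the submitters' processing notes. Whether counting used strand is not stated there. The table's positions are not GRCm38, so coordinates come from GENCODE vM21 by symbol, and overlaps from the table's own positions. Of 23686 rows, 18 exact repeats were removed.

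Genes reaching 1 FPKM in 3 or more of 12 libraries were tested on log2(FPKM + 1) with limma 3.58.1 in R 4.3.3 (trend and robust moderation, Benjamini-Hochberg at 0.05; intervals are 95%). The main fit used the 6 TKO libraries with letter as a replicate block; WT was fitted likewise, and the difference of effects over 12 libraries with letter within genotype. Columns carry letters and titles numbers, so columns were assigned to groups only. Pairing comes from the data: between TKO vehicle and TKO ATRA, deviations from the group mean correlated at 0.604, 0.864 and 0.728 for the same letter. For different letters across these groups they correlated at −0.73 to 0.315. Because deviations are taken from the mean of each group, values between different letters are pushed negative in advance.

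Named genes were the receptors; genes past the threshold; the 8 largest rises and falls in TKO (unadjusted p under 0.05, same direction in 3 pairs, mean of at least 1 FPKM) and in WT; up to 4 members per list; and the 8 largest letter ranges, without predicted, small RNA or repeated symbols except where called. The lipid and sterol lists were then described; results for some genes are not reported here. Members and lists were chosen with earlier results of these data known. Depth was estimated from FPKM steps under 0.05 FPKM and transcript lengths of single-transcript genes of at least 1500 bases, after seeing the data; counting noise covers counting error only. Python 3.11.15 drew figures. Alternatives were pseudocount, filters, scaling, moderation, block and left-out pairs. The test was tried on simulated data.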

Additional observations from a re-analysis of the deposited data

Results flagged for a closer look

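The effect of ATRA in TKO minus that in WT was tested over 12 libraries with letter within genotype as a block. It differed for 4820 of 12362 genes in limma (39%), 3060 with a lower effect in TKO (24.8%) and 1760 with a higher one (14.2%). The values below are log2 differences, TKO minus WT, of the genes named here that passed this test.

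Genes whose response to ATRA in WT cells was upward and in TKO cells near 0 had −6.91 for Cyp26a1, −4.30 for Hoxb2, −4.11 for Hoxa5, −4.00 for Stra6, −3.74 for Cdx1, −3.55 for Dhrs3, −3.44 for Zfp703 and −3.31 for Hoxa3. Among the receptors, the difference was −2.57 for Rarb, −0.84 for Rarg and −0.62 for Rara. The 8 largest falls in WT had 3.91 for Tdh, 2.79 for Ly6g6e, 2.62 for Serpinb6c, 2.52 for Tcl1, 2.44 for Enox1, 2.28 for Nr0b1, 2.24 for Nkx6-3 and 2.23 for Slc17a9. Apart from the receptors, these rises and falls were chosen by their WT change. That change is part of the difference, so its size is no further support. Hoxb2, Hoxa5, Stra6, Dhrs3, Zfp703 and Hoxa3 had TKO means under 1 FPKM and could pass the filter through WT.

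Among the largest estimates in TKO, the difference was 1.28 for Akr1b3, 2.18 for Snora70, 0.49 for Abca1, 0.45 for Phf11a and 0.43 for Abcg1, and it was −1.71 for Steap3, −1.01 for Scd2, −0.81 for Cxx1b and −0.73 for Rab20. The TKO change by which these genes were chosen is part of the difference. Among the genes with the largest ranges between letters it was 1.36 for Patl2, 1.01 for Acss1, 0.97 for Trpm1 and 0.67 for Hrk. Overlapping genes and near-identical copies make the Akr1b3 and Snora70 values uncertain.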

How the results depend on the processing

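Counts past the adjusted threshold in TKO, 3 in the fit reported, were 0 with no filter on low values, 0 without trend or robust moderation, 0 over all 12 libraries with a replicate block within genotype or with no replicate block, 0 among genes that overlap no other listed gene (chosen after seeing the data) and 1 with no replicate block in TKO alone. Leaving out a pair gave 4 to 8. Pseudocount and scaling kept the count at 3, and a mean of at least 5 FPKM gave 2. The 829 genes with an unadjusted p under 0.05 became 464 to 1415 without a pair, 18 with no replicate block, 354 over 12 libraries with the block and 12 without it. The median distance to the interval end, 0.113, was 0.307 with no replicate block and 0.302 over 12 libraries without it. The 8862 letter differences were 2741 to 7787 without a letter.

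The 8 LXR and RXR lipid genes became 4 with no filter, 3 to 8 without a pair, 4 over 12 libraries with the replicate block and 0 in both fits without it. The 5 sterol synthesis genes became 2 with no filter, 2 without trend or robust moderation, 1 to 12 without a pair, 1 over 12 libraries with the block and 0 in both fits without it. The alternatives for both lists were added after seeing the data. Causes of these shifts were not tested. Of 1908 combinations of 153 named genes and settings, 1890 kept their direction and their side of the threshold, 16 lost the call, 2 gained it and 0 reversed. With a pseudocount of 0.1, 95.9% of intervals lay within 1.5-fold, against 99.3%. With 3 pairs and 2 residual degrees of freedom the fit leans on moderation across genes. Depth limits genes under about 1 FPKM, where a bound is on the level and not on a fold.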
